A study of Mus musculus with 10 samples.

Results

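The genes described here are the mitochondrial carriers: the Slc25 family, its member Ucp2, and Mpc1 and Mpc2, the subunits of the mitochondrial pyruvate carrier. They were chosen by symbol, as Slc25a with a number or as one of those 3 names, and by a level of at least 1 TPM (a transcript abundance scaled to gene length and library) in at least 5 of 10 libraries. Of 50 genes with such a name, 39 reached that level, out of 13930 genes of the 55487 in the table that did. The study sorted cells labelled CD8+ T cells from MC38 tumours, a mouse colon carcinoma line, and sequenced their RNA in bulk. The mice carried wild-type Ptpn22 (WT, 5 libraries) or the S452A form, in which a serine is replaced by alanine (5 libraries). Ptpn22 encodes the protein tyrosine phosphatase Pep, and the design text writes the change as S425A where the labels write S452A. All 10 mice were injected with MC38 cells at 8 weeks of age, and all tumours were collected 18 days later for collagenase digestion. The labels number the mice 1 to 5 in each genotype.

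Carriers of the Slc25 family sit in the inner mitochondrial membrane, with a few exceptions, and exchange nucleotides, phosphate, metabolites of the citrate cycle, amino acids and cofactors between the matrix and the cytosol. Their proteins are made in the cytosol and reach the membrane through the TOM complex, the small Tim chaperones and the TIM22 insertase. The pyruvate carrier belongs to another family and works as a heterodimer of Mpc1 and Mpc2. In macrophages, citrate exported through Slc25a1 feeds lipid synthesis, and Ucp2 is a carrier known for its abundance in immune cells.

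T cell transcripts were scarce in these libraries, against their label. The 8 genes of the T cell receptor, CD3 and CD8 together summed to 12.1 to 126 TPM in WT and 15.0 to 135 TPM in S452A, with none of them at 0 throughout. The 11 macrophage markers summed to 17914 to 24890 and 18751 to 24311 TPM. In bulk RNA, fewer cells of a type and less RNA per cell cannot be told apart, and the carrier levels below cannot be credited to T cells. The 5 markers of epithelial or tumour cells summed to 0.73 to 4.20 TPM. The 9 fibroblast markers were all lower in S452A (188.7 to 363 TPM summed in WT, 85.5 to 243.5 in S452A, 0 of 9 passing limma), and all 13 mitochondrially encoded genes were lower too (30002.5 to 60136.5 against 21057.5 to 42364.8 TPM, 0 of 13 passing). The part of these shifts in the carrier values was not tested. TPM keeps no read counts, so the depth of the libraries is unknown.

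Some carriers share near-identical sequence with pseudogenes or other annotated genes, and this limits how their levels can be read. Slc25a5, the ADP/ATP carrier of growing cells (chrX:36795651-36798807, plus strand, GRCm38), has processed pseudogenes Gm5560 (chr5:97264828-97265719, plus strand) and Gm5529 (chr1:79922536-79923426, minus strand). Over the ungapped aligned bases of its coding sequence, Gm5560 differed at 17 of 892 and Gm5529 at 17 of 888. The paralogue Slc25a4 differed at 202 of 897, an identity of 77.5%. Coding bases 801 to 890 of Slc25a5, the 90-base stretch in which Gm5560 differs most, show how little separates them; capitals mark bases that differ from Slc25a5.
Slc25a5: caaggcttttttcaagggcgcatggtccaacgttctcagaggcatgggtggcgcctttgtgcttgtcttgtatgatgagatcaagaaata
Gm5560: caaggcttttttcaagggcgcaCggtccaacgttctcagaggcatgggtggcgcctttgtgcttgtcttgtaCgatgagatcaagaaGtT
Gm5529: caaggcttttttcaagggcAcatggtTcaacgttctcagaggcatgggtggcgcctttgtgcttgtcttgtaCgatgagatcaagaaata
Slc25a4: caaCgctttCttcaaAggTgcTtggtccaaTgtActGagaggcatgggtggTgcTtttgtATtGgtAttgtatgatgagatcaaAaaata

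Mpc1 (chr17:8282904-8297661, plus strand) differs from its processed pseudogene Mpc1-ps (chr12:110858565-110858894, minus strand) at 1 of 330 coding bases. That base is marked by a capital in coding bases 1 to 90, and the remaining aligned bases are the same in both.
Mpc1: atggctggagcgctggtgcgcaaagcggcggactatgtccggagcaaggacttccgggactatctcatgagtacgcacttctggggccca
Mpc1-ps: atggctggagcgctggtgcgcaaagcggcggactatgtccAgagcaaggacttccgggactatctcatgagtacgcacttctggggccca

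In the deposited table Gm5560 was at 83.7 to 148 TPM and Gm5529 at 33.9 to 53.7 TPM, while Slc25a5 itself was at 284 to 453 TPM. The pseudogenes took 27.8 to 34.1% of the sum of the 3 genes, a narrow range over 10 libraries. Mpc1-ps was at 24.0 to 59.9 TPM beside 34.9 to 61.9 TPM for Mpc1, and took 35.02 to 58.3% of their sum. A read from a stretch they share fits gene and pseudogene alike, so the levels of Slc25a5 and Mpc1 alone are uncertain. Slc25a37 aligned with the annotated gene Gm16867 over 342 bases without a difference, and Gm16867 held 6.96 to 27.6% of their sum. Slc25a40 aligned with Gm5066 over 724 bases at 96.3% identity, and Gm5066 held 15.6 to 50% of a sum of 2.73 to 6.14 TPM. The other 35 carriers had no copy above 0 TPM by the same search (95% identity or more, 200 aligned bases or more, and 0.8 of the shorter transcript covered).

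**Figure D1:**
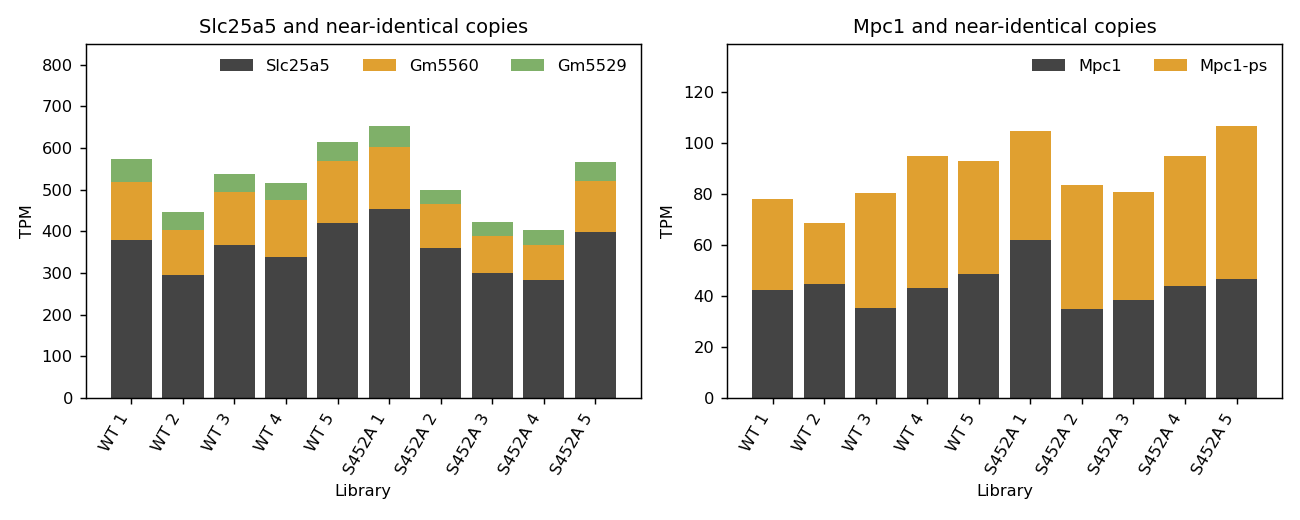
Stacked TPM (linear axis from 0) of Slc25a5 with its pseudogenes Gm5560 and Gm5529 (left) and of Mpc1 with Mpc1-ps (right), one bar per library. The pseudogenes hold 27.8 to 34.1% of the Slc25a5 bars and 35.02 to 58.3% of the Mpc1 bars.

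The carriers spanned a wide range of levels: 4 averaged at least 100 TPM, 21 lay between 10 and 100, and 14 were under 10. Their median of mean TPM was 14.3, beside 12.1 for all genes tested. Together they made up 1711 to 2106 TPM per library, and the 4 highest genes, Ucp2, Slc25a5, Slc25a3 and Slc25a4, held most of it. Ucp2, a relative of the brown fat uncoupling protein (chr7:100493337-100502020, plus strand), led the deposited table. It was at 553, 545, 426, 449 and 432 TPM in WT libraries 1 to 5 and at 544, 348, 497.6, 370.04 and 600.0 TPM in S452A libraries 1 to 5, so the genotypes overlapped. Its mean lies at the 97.6th percentile of the genes tested, while Ucp1 averaged 0.154 TPM in WT and 0.15 in S452A.

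Slc25a5 was at 379.6, 296, 368, 339.5 and 420.4 TPM in the WT libraries and at 453, 361, 300.03, 284 and 398 TPM in the S452A libraries. Ucp2 was above Slc25a5 in 9 of 10 libraries. With the pseudogenes summed into Slc25a5 the order turned: the sum averaged 523 TPM against 477 for Ucp2, and Ucp2 was higher in 3 of 10 libraries. Slc25a3, which brings phosphate into the matrix for ATP synthesis (chr10:91116574-91124059, minus strand), was at 255, 265, 271, 319 and 244 TPM in the WT libraries and at 287, 254, 291, 263 and 281 TPM in the S452A libraries. Its highest library exceeded its lowest by 1.31-fold, one of the 3 narrowest spreads among the carriers. Slc25a4, the ADP/ATP carrier best known from heart and muscle (chr8:46206797-46211284, minus strand), was at 153, 110, 185, 138 and 146 TPM in WT. In S452A it was at 168, 167, 87.0, 107 and 140.1 TPM, the widest span among the 4 highest carriers at 2.12-fold. The order Slc25a5, Slc25a3, Slc25a4 and Slc25a28 held in all 10 libraries, copies summed or not.

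**Figure D2:**
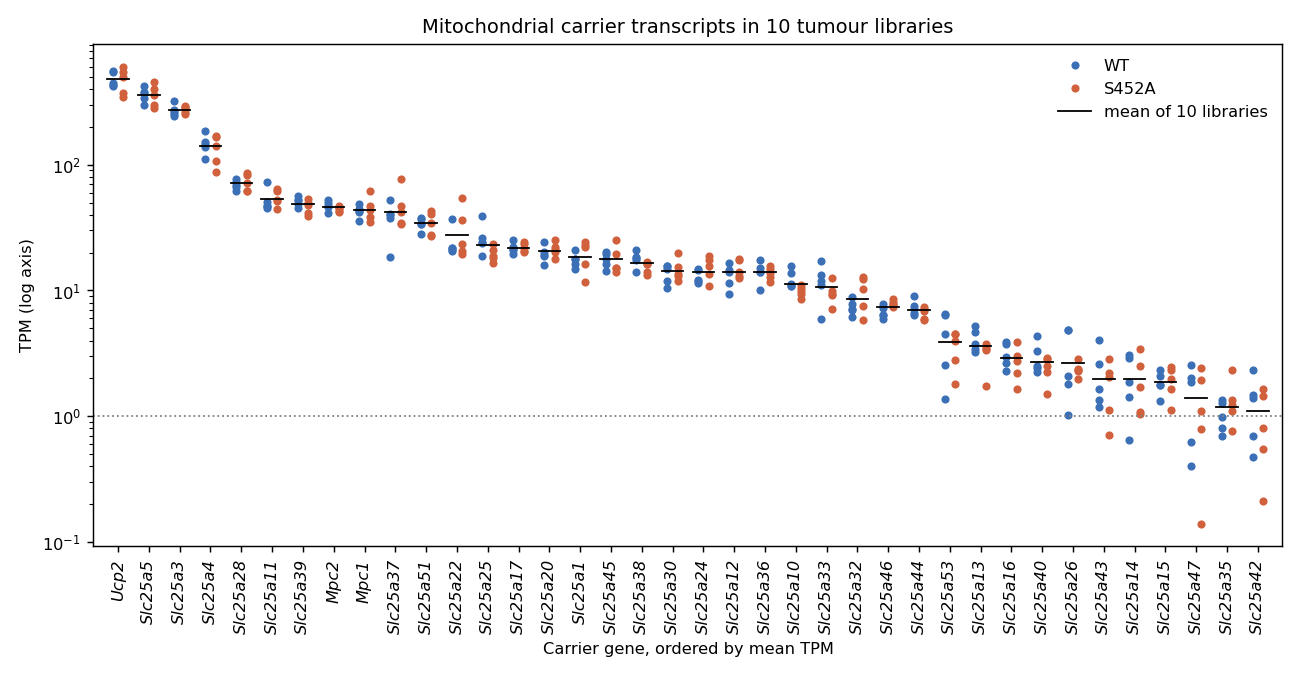
TPM on a log axis of 38 of the 39 carriers, ordered by mean; points are the 5 WT (blue) and 5 S452A (orange) libraries, bars the mean of 10 and the dotted line 1 TPM. Ucp2, Slc25a5, Slc25a3 and Slc25a4 average above 100 TPM and the genotypes overlap for every gene shown.

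From the 6th place down, several neighbouring carriers changed order between libraries. Slc25a28, the broadly expressed mitoferrin that imports iron, held the 5th place: it averaged 71.1 TPM and lay above Slc25a11, the 2-oxoglutarate/malate carrier (53.5 TPM), in 10 of 10 libraries. Slc25a11 was above Slc25a39, a glutathione importer (48.4 TPM), in 7 of 10, and Slc25a39 above Mpc2 (45.9 TPM) in 7 of 10. Mpc2 was above Mpc1 (44.0 TPM) in 6 of 10 libraries, and in 0 of 10 once Mpc1-ps was summed into Mpc1. With that sum Mpc1 moved from the 9th to the 5th place, at 88.5 TPM on average. Slc25a37, the mitoferrin known from red cell precursors, was at 18.5, 40.1, 40.3, 52.2 and 38.0 TPM in the WT libraries and at 34.2, 33.7, 47.3, 76.4 and 42.0 TPM in the S452A libraries. It had one of the 3 widest spreads on the log2 scale, with S452A library 4 highest and WT library 1 lowest. The 6 erythroid markers summed to 37.7 to 126 TPM in WT, with library 1 highest, and to 26.7 to 138 TPM in S452A, with library 4 lowest. The part of red cell RNA in the Slc25a37 values was not tested.

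Among carriers of amino acids and cofactors, Slc25a51 (NAD) averaged 34.3 TPM, Slc25a22 (glutamate) 27.7 and Slc25a38 (glycine, for haem synthesis) 16.6. Slc25a22 stood at 19.6 to 23.5 TPM in 7 libraries and at 36.7, 54.6 and 36.6 TPM in WT library 1 and S452A libraries 4 and 5. The carnitine/acylcarnitine carrier Slc25a20 averaged 20.5 TPM, the peroxisomal cofactor carrier Slc25a17 21.9 and the citrate carrier Slc25a1 18.5. Slc25a45, with no substrate given here, averaged 17.7 TPM. The lowest carriers lay at the edge of the level that chose them. Slc25a42, a coenzyme A carrier, reached 1 TPM in 5 libraries, and Slc25a47 and Slc25a35 in 6. Just outside, Slc25a29 reached it in 1 library (3.65 TPM in WT library 1) and Slc25a23 in 1, and Slc25a41, Slc25a48 and Slc25a21 were listed at 0 in all 10. The liver-enriched Slc25a47 varied from 0.14 to 2.55 TPM and Slc25a53 from 1.36 to 6.48, the other members with the widest spread. Mpc2 (41.0 to 52.7 TPM) and Slc25a17 (19.5 to 25.02 TPM) were, with Slc25a3, the steadiest.

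By role, the adenine nucleotide carriers held 22.9 to 32.8% of all carrier TPM per library. Ucp2 with its relatives Slc25a14 and Slc25a30 held 20.9 to 30.5%, and the phosphate carrier 12.6 to 16.6%. The 9 carriers of cofactors and other nucleotides held 6.94% on average, the 2 mitoferrins 6.03%, the 2 pyruvate carrier subunits 4.74%, the 3 di- and tricarboxylate carriers 4.38% and the 6 amino acid carriers 3.75%. All 39 summed to 1902 ± 74.6 TPM in the WT libraries against 1890 ± 194 TPM for S452A (SD over 5 each, exact 2-sided permutation p = 0.889). None of the 12 sums, over all members and over 11 roles, passed (adjusted p = 0.968 for each), and the lowest unadjusted p was 0.167, for the glutathione carriers.

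Several carriers come as pairs with the same or a related substrate, and in 6 of 9 such pairs the same gene was higher in all 10 libraries. Slc25a5 made up 66.6 to 77.5% of the TPM of both ADP/ATP carriers, and 74.4 to 83.0% with its pseudogenes counted. Slc25a39 made up 92.8 to 97.2% of the glutathione carriers. Of the calcium-regulated aspartate/glutamate carriers, which serve the malate-aspartate shuttle, Slc25a12 was the higher in all 10 libraries and Slc25a13 held 12.2 to 28.7%. Slc25a28 exceeded Slc25a37 in 9 of 10 libraries, the exception being S452A library 4, where Slc25a37 held 51.7% of the sum. Slc25a16 exceeded Slc25a42 in all 10 among the coenzyme A carriers, though both are under 4 TPM. The 2-oxoglutarate carrier Slc25a11 exceeded the citrate carrier Slc25a1 in all 10, with 16.8 to 31.3% for Slc25a1. Slc25a36 and Slc25a33, for pyrimidine nucleotides, were near equal: Slc25a36 held 45.2 to 67.7% and more than 50% in 8 libraries. The coding sequences of the ADP/ATP, aspartate/glutamate and mitoferrin pairs were 77.5, 71.7 and 70.6% identical, below the 95% at which copies were searched.

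**Figure D3:**
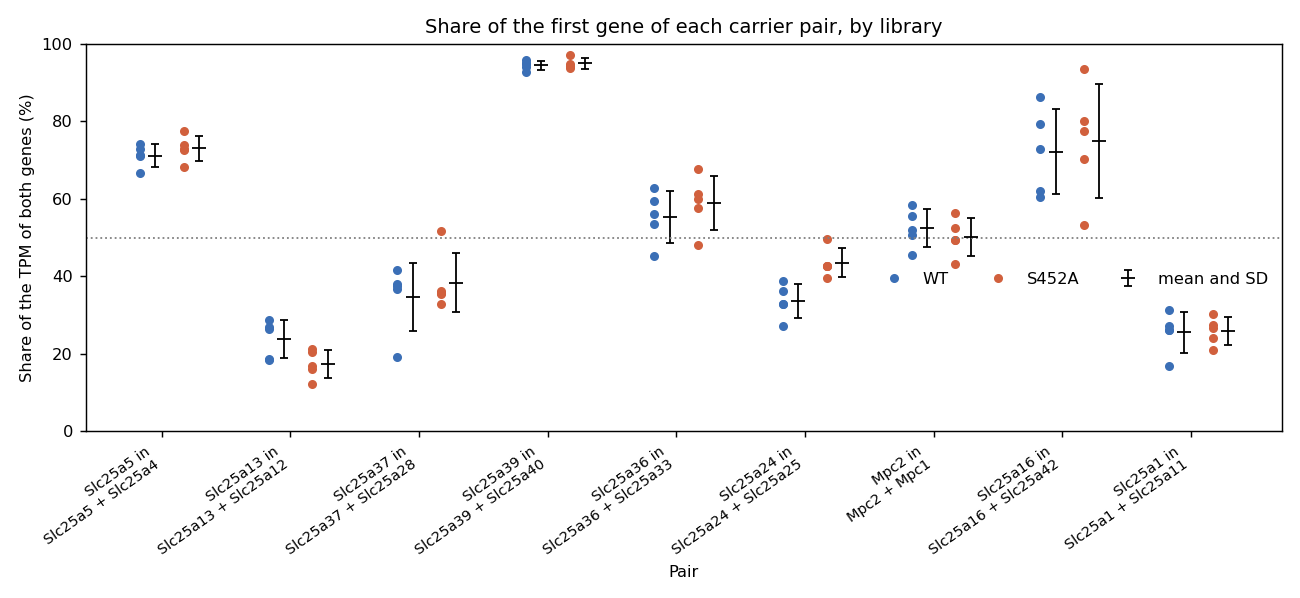
Share (%) of the first gene in the TPM of both genes of 9 pairs; points are libraries (WT blue, S452A orange), bars the mean and SD of 5 and the dotted line 50%. The genotypes do not overlap only for Slc25a24 in Slc25a24 plus Slc25a25 (27.3 to 38.9% in WT, 39.7 to 49.8% in S452A).

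The pair Slc25a24 and Slc25a25 showed the widest gap between genotypes. Both encode calcium-regulated carriers that exchange ATP-Mg for phosphate and so set the adenine nucleotide pool of the matrix. Slc25a24 was at 14.8, 12.1, 11.96, 14.6 and 11.6 TPM in the WT libraries and at 15.6, 17.4, 10.9, 13.5 and 18.8 TPM in the S452A libraries. Slc25a25 was at 25.9, 18.9, 24.3, 38.8 and 23.7 TPM in the WT libraries and at 20.95, 23.4, 16.6, 18.1 and 18.9 TPM in the S452A libraries. Slc25a25 exceeded Slc25a24 in all 10 libraries. Each gene overlapped between genotypes, but their ratio did not: Slc25a24 held 36.3, 38.9, 33.0, 27.3 and 32.8% of the sum in WT and 42.7, 42.6, 39.7, 42.7 and 49.8% in S452A. The means were 33.7 ± 4.37% and 43.5 ± 3.75% (SD, n = 5), a difference of 9.83 percentage points, with a 2-sided exact permutation p = 0.00794. That is the smallest p 5 against 5 can give, and adjusted over the 9 pairs it was 0.0714, so the pair did not pass. A single pair at the smallest p cannot pass over 9 at the threshold of 0.05. The gap was 8.24 to 11.1 points with each library left out. Slc25a24 lies on chromosome 3, as Ptpn22 does. The part of sequence linked to Ptpn22 in this gap was not tested. The aspartate/glutamate pair came next (23.8 ± 4.90% Slc25a13 in WT, 17.4 ± 3.67% in S452A, exact permutation p = 0.0714, adjusted p = 0.321), and the other 7 had an adjusted p of at least 0.806.

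Upstream sequence of this pair is shown because its ratio was the one that did not overlap. RefSeq (GRCm38.p6) gives 1 start for Slc25a24 and 3 for Slc25a25, and the 250 bases before each were searched on both strands. The letters searched were CCAAT, the GC box GGGCGG, the cyclic AMP response element TGACGTCA, an ETS site CCGGAAGT, an ERR site TCAAGGTCA and the NRF1 site by its usual palindrome. Capitals mark the matches in the window of Slc25a24 (chr3:109122899-109123148, plus strand) and in the window of the third start of Slc25a25 (chr2:32424067-32424316, minus strand).
Slc25a24: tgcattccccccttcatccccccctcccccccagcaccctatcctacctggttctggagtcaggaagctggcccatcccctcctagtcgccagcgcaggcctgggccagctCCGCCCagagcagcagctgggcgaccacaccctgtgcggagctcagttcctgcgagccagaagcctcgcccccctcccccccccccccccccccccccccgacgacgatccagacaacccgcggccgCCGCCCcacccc
Slc25a25: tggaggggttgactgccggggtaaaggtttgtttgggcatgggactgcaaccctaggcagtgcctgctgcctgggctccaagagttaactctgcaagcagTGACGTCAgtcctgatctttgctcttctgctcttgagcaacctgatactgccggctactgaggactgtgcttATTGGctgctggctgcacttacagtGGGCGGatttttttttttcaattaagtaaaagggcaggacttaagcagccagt

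TGACGTCA was found in that window of Slc25a25, but not in the windows of its first and second starts. It was not found in the window of Slc25a24 either. CCAAT was found in all 3 windows of Slc25a25, of which only the third is printed, and not in that of Slc25a24. With 3 windows against 1, Slc25a25 had more sequence in which a match could occur. Counting a gene once if any of its windows held the letters, TGACGTCA was present in 2 of 31 carriers with a window (6.5%), the other being Slc25a36, and in 1.77% of all 27025 genes with a window. GGGCGG was present in 23 of 31 carriers (74.2%) and 35.4% of all genes, and CCAAT in 16 (51.6%) and 37.5%. CCGGAAGT was present in 1 of 31, Slc25a20, and in 3.23% of all genes, and the NRF1 and ERR letters in 0 of 31 and in 0.88% and 0.42%. The other 8 carriers had no window in the table. The 27025 genes were not limited to those reaching 1 TPM in 5 libraries, as the carriers were. The shares of carriers and of all genes therefore do not compare like with like.

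Between genotypes, 0 of the 39 carriers passed limma at an adjusted p under 0.05 (the lowest was 0.952), where 0.00718% of all genes tested passed. An exact Wilcoxon rank-sum test with adjustment also passed 0 carriers, and 0% of all genes. Before adjustment 3 of 39 carriers (Slc25a10, Slc25a25 and Slc25a46) were under 0.05 by that test, where 3.19% of all genes were. By limma without adjustment, 1 carrier was under 0.05, or 2.56%, against 4.74% of all genes. It was lower in S452A: 1 of 39 carriers had such a p and was lower, against 2.73% of all genes, and 0 of 39 had such a p and were higher, against 2.01%. By sign alone 17 carriers were higher and 22 lower, where 46.6% of all genes tested were higher. The libraries of the genotypes overlapped for every carrier, while 0.646% of all genes did not overlap. The median log2 difference, S452A minus WT on the log2(TPM + 1) scale, was -0.018 over the carriers and -0.017 over all genes. The 95% interval of the difference lay within a 2-fold change either way for all 39 carriers and within 1.5-fold for 23, on a scale that understates changes of low genes.

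**Figure D4:**
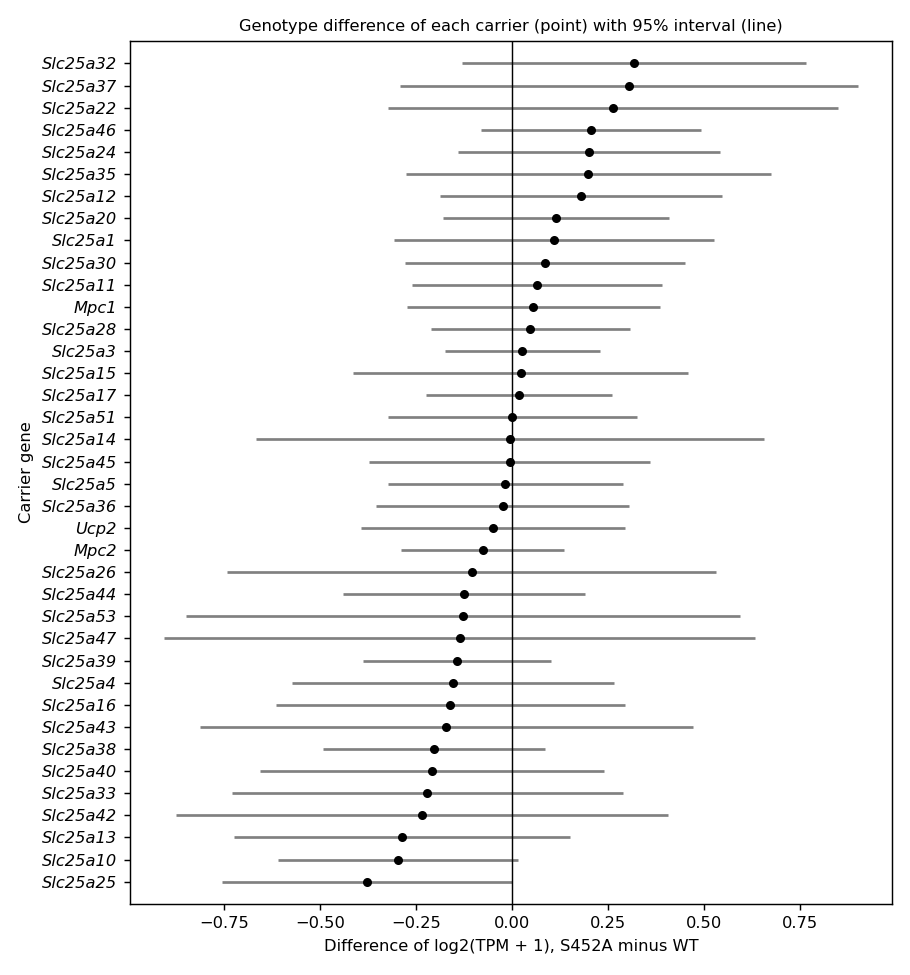
Difference of log2(TPM + 1), S452A minus WT, for 38 of the 39 carriers (points) with 95% intervals from limma (lines), ordered by size. All points lie between -0.38 and 0.32 and all intervals but that of Slc25a25, which ends just below 0, include 0.

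The carrier with that p was Slc25a25, at 26.3 ± 7.43 TPM for WT against 19.6 ± 2.63 for S452A (SD over 5 each). The log2 values differed by -0.38 (SE 0.17), with an adjusted p of 0.952 by limma. The WT libraries ran from 18.9 to 38.8 TPM and the S452A libraries from 16.6 to 23.4, so they overlapped. Next on the lower side came Slc25a10, the dicarboxylate carrier, at 13.9, 15.6, 10.8, 11.2 and 10.8 TPM in the WT libraries and at 11.1, 9.85, 8.54, 10.5 and 9.38 TPM in the S452A libraries. The highest S452A library reached the level of the lower WT libraries. Its log2 difference was -0.30 (SE 0.14, limma adjusted p = 0.952). Slc25a38, the glycine carrier, differed by -0.20 (17.9 ± 2.55 against 15.3 ± 1.55 TPM), Slc25a13 by -0.29 (4.05 ± 0.84 against 3.17 ± 0.81 TPM) and Slc25a39 by -0.14 (50.8 ± 4.14 against 46.1 ± 5.86 TPM). None of these passed.

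On the higher side the largest log2 difference was 0.32 (SE 0.21, limma adjusted p = 0.952), for Slc25a32, which carries folate into the matrix. It was at 8.81, 6.96, 7.10, 7.85 and 6.15 TPM in the WT libraries and at 7.52, 10.2, 12.3, 5.82 and 12.9 TPM in the S452A libraries. S452A library 4 was below all WT libraries and 3 S452A libraries were above all of them. Slc25a46, an outer membrane member linked to mitochondrial shape, averaged 6.76 ± 0.75 TPM over WT mice and 7.93 ± 0.42 over S452A mice (log2 difference 0.21). Slc25a24 differed by 0.20, Slc25a37 by 0.30 and Slc25a12 by 0.18, none of which passed. Of the most abundant carriers, Slc25a4 differed by -0.15 (95% interval -0.57 to 0.27), Slc25a5 by -0.02 (95% interval -0.32 to 0.29), Slc25a3 by 0.03 (-0.18 to 0.23) and Ucp2 by -0.05 (-0.39 to 0.29). The signs of Slc25a5, Slc25a3 and Ucp2 turned with some library left out, and that of Slc25a3 also under quantile normalization.

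Covariation was examined in 126 relations across the 10 libraries: the 9 pairs, and each carrier against the mean log2(TPM + 1) of the T cell, macrophage and mitochondrially encoded lists. Of these, 0 passed after adjustment and 10 had an unadjusted permutation p under 0.05 (Pearson, 2-sided, 100000 resamples). The genes share the scaling of their library. The ADP/ATP carriers had the highest r of the 9 pairs, with Pearson r = 0.77 (permutation p = 0.00943, adjusted p = 0.537) and Spearman rho = 0.697 (permutation p = 0.031, adjusted p = 0.716) over 10 libraries. Without S452A libraries 3 and 4, the farthest in Slc25a4, r was 0.61. The other 8 pairs had r between -0.099 and 0.404, the lowest being that of the 2 pyruvate carrier subunits.

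The closest relation joined Slc25a3 to the mitochondrially encoded genes, which encode subunits of the respiratory chain and of ATP synthase. It was negative, with Pearson r = -0.817 (permutation p = 0.00417, adjusted p = 0.525) and Spearman rho = -0.842 (permutation p = 0.00353, adjusted p = 0.445). Without the libraries farthest from the median, WT library 5 and S452A library 3, r was -0.787. With both measures centred within genotype it was -0.916 (permutation adjusted p = 0.0126), the only relation that passed under that setting. The permutation shuffled the centred values over all 10 libraries, although centring ties them within each genotype. That p may therefore be too small. The change in Slc25a3 behind the relation is small, from 244 to 319 TPM over all libraries. The list mean includes mt-Co3, at 51.5, 212 and 85.3 TPM in WT library 4 and S452A libraries 1 and 3. In the other libraries mt-Co3 was at 1099 to 2662.5 TPM. Slc25a3 was highest in the libraries where mt-Co3 was low, at 319, 287 and 291 TPM. The part of mt-Co3 in the relation was not tested. With the T cell list, Slc25a28 had r = 0.717 (permutation p = 0.0239, adjusted p = 0.537, rho = 0.685 with permutation p = 0.0354, r = 0.667 without WT library 2 and S452A library 1), and the median over the 39 carriers was 0.00694. Slc25a40 (r = 0.651, permutation p = 0.0354) and Mpc1 (r = -0.646, permutation p = 0.0388) also had an unadjusted p under 0.05 with that list, both with an adjusted p of 0.537.

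With the macrophage list, whose genes are far more abundant in these libraries, Mpc1 had r = 0.726 (permutation p = 0.0163, adjusted p = 0.537) and rho = 0.685 (permutation p = 0.0343, adjusted p = 0.716). Without WT library 3 and S452A library 2, the farthest in that list, its r was 0.391, so the relation rests in part on them. Slc25a40 (r = -0.676, permutation p = 0.0325) and Slc25a33 (r = -0.655, permutation p = 0.0395) were negative, each with an adjusted p of 0.537, and r was -0.435 and -0.285 without the same libraries. The remaining relations with an unadjusted p under 0.05 joined Slc25a47 (r = 0.699, permutation p = 0.0264) and Slc25a32 (r = -0.649, permutation p = 0.0426) to the mitochondrially encoded list, again with an adjusted p of 0.537. Over the 39 carriers the median r was -0.0577 with the macrophage list and 0.081 with the mitochondrially encoded list.

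**Figure D5:**
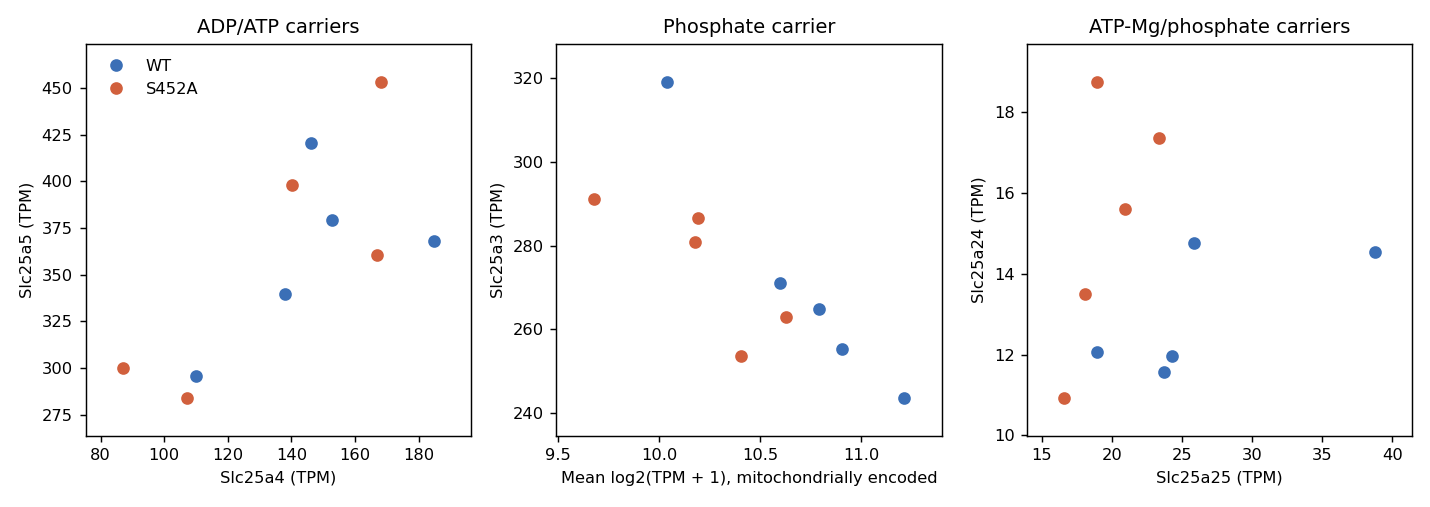
Each point is a library (WT blue, S452A orange); axes are linear TPM except the middle x axis, a mean of log2(TPM + 1). Left, Slc25a5 against Slc25a4 (r = 0.77 on the log2 scale); middle, Slc25a3 against the mitochondrially encoded mean (r = -0.817); right, Slc25a24 against Slc25a25, where Slc25a24 is higher relative to Slc25a25 in every S452A library than in any WT library.

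Genes that work beside the carriers gave 0 passing members among 98 tested, by limma over all genes. The counts by sign that follow stand beside 46.6% of all genes tested being higher in S452A. The import machinery of carriers was lower in S452A in 12 of 16 members and higher in 4, with a median log2 difference of -0.03. Timm10, a small Tim chaperone that escorts carriers across the intermembrane space, averaged 36.2 ± 4.53 TPM for WT and 28.0 ± 5.58 for S452A (difference -0.38, adjusted p = 0.952 by limma), and Agk of the TIM22 complex differed by -0.32. Of 7 outer membrane channel and insertase genes, 6 were lower (median -0.10). They include Mtch1, a distant relative of the carriers, at 55.1 ± 9.11 and 43.3 ± 6.40 TPM (-0.34), and Samm50 at -0.16. Among 15 other inner membrane transporters, 10 were higher and 5 lower. Abcb8 was at 10.02 ± 2.96 and 5.004 ± 1.16 TPM (log2 difference -0.85, limma adjusted p = 0.900), and Micu2, which gates the calcium uniporter, differed by 0.23.

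Enzymes next to the pyruvate, citrate and malate-aspartate carriers were higher in 7 and lower in 12 of 19. Acod1, which makes itaconate from cis-aconitate in activated macrophages, was at 654 ± 207 and 895 ± 345 TPM (0.43), and Pcx, pyruvate carboxylase, differed by -0.42. The list of enzymes beside the folate, S-adenosylmethionine and glycine carriers also holds Arg2, an arginase. Of its 13 genes 10 were tested, 5 higher and 5 lower, with Alas1 of haem synthesis at 0.21 and Arg2 at 0.28. Those beside the carnitine carrier were higher in 6 of 9, with Hadhb of fatty acid oxidation at 0.34 and Cpt1b at 0.39. Iron-sulphur and haem enzymes were lower in 7 of 10, with Iscu at -0.15 and Hscb at -0.11. The mitochondrially encoded genes were lower in 13 of 13, with mt-Atp6 at -0.88 and mt-Nd2 at -0.40. All of these lists but the last had medians between -0.10 and 0.07, beside -0.017 for all genes, and the last -0.42.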

How the data were processed

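RNA of 10 libraries was measured. Per the labels' protocols, 40 ng of column-purified RNA entered a directional library kit. The tools named in the submitters' processing notes are RSEM 1.3.0 and STAR 2.7.9a, with GRCm38.p6 as build. The authors deposited TPM, already scaled to length and to 1000000 per library. Which annotation release was counted, and whether by strand, is not given in the sources used here.

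Columns were matched by sample description. Genes with 1 TPM or more in 5 libraries were analysed as log2(TPM + 1) with limma 3.58.1 in R 4.3.3 (trend, genotype as the only term, Benjamini-Hochberg over 13930 genes, threshold 0.05) and the fit was tested on simulated data. Sums and shares used 2-sided exact permutation tests, and the rank-sum test was exact with ties as midranks. Copies were found with blastn 2.17.0 in GENCODE M21 transcripts. Positions are from GENCODE M21 (GRCm38). Sums, shares and correlations used scipy 1.17.1, pandas 2.3.3 and numpy 2.4.6 under Python 3.11.15, and figures matplotlib 3.10.9. P-values of genotype tests set a difference against the variation between the libraries of these mice. Those of correlations come from shuffling the libraries.

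Values of 1 member and of 1 marker are not reported here. The members and lists were chosen with earlier results of these data known. Named were the genes of the 9 pairs, the 8 highest, the 5 of smallest p in each direction, the 3 of largest and of smallest spread, and 2 genes per list. Markers, Slc25a20, Slc25a22, Slc25a45, Slc25a51 and the genes beside the level threshold were named after their values were seen. Genes averaging under 1 TPM numbered 4 of 5 for B cells, 4 of 4 for natural killer cells, 3 of 5 for dendritic cells, 4 of 7 for neutrophils, 2 of 6 for erythroid cells and 4 of 5 for brown fat and muscle. Alternatives were other pseudocounts (0.1 and 5), filters, scalings, moderation, a threshold of 0.1, the T cell list as a covariate, a replicate block, summed copies, and leaving out each library.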

Additional observations from a re-analysis of the deposited data

Results flagged for a closer look

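Groups of 5 libraries were scanned over the 27 carriers named by rule, sums and shares. In 6 of 92 groups 1 library lay far from the other 4, where chance gives about 1 in 20. WT library 1 accounts for 3 of them. Slc25a11 was at 72.6 TPM there against 45.5 to 50.6 in the other WT libraries. The di- and tricarboxylate carriers, which include Slc25a11, summed to 101.2 TPM against 72.5 to 80.5. Slc25a37 held 19.3% of the mitoferrin TPM in that library against 36.8 to 41.7%. In S452A library 4 the same share was 51.7% against 33.0 to 36.3% in the other S452A libraries. Slc25a39 held 97.2% of the glutathione carriers in S452A library 1 against 93.9 to 94.9%. Slc25a13 was at 1.75 TPM in S452A library 3 against 3.38 to 3.76. Slc25a22 was not in the scan, and was at 36.66 TPM in WT library 1 against 20.55 to 21.87 in the other WT libraries.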

How the results depend on the processing

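No carrier, summed role or share within the 9 pairs passed at an adjusted p under 0.05 under any of the alternatives run. For shares and sums this says little. A single share or sum could not pass, because the smallest possible exact p, once adjusted, stayed above 0.05 in each alternative. At a threshold of 0.1 no carrier passed either, while the share of Slc25a24 (adjusted p = 0.0714 by exact permutation) would. The median log2 difference of the carriers ran from -0.064 to 0.008 with 1 library left out. Leaving out 1 library turned the sign of the log2 difference for Mpc1 (-0.064 to 0.14), Slc25a17 (-0.020 to 0.066), Slc25a28 (-0.014 to 0.10), Slc25a3 (-0.0098 to 0.087), Slc25a36 (-0.13 to 0.049), Slc25a47 (-0.32 to 0.088), Slc25a5 (-0.11 to 0.061), Slc25a53 (-0.38 to 0.032) and Ucp2 (-0.14 to 0.051). It did so for the shares, in percentage points, of Slc25a1 (-1.78 to 1.82), Slc25a16 (-1.97 to 8.08), Slc25a37 (-0.0697 to 5.52) and Slc25a39 (-0.159 to 0.745) in their pairs, and for the summed TPM of adenine nucleotides (-51.1 to 9.81), all members (-66.4 to 32.3), amino acids (-1.27 to 7.91), cofactors and other nucleotides (-8.72 to 1.29), di- and tricarboxylates (-2.05 to 6.36), others (-1.27 to 1.84), phosphate (-2.53 to 16.3), pyruvate (-5.11 to 2.17) and uncoupling protein relatives (-39.6 to 23.5). With copies summed, the pyruvate carrier sum differed by 8.53 TPM, S452A minus WT, in place of -0.312. Rescaling with the genes of the mitochondrial genome, of histones, of immunoglobulins and of small RNAs left out turned Slc25a17 to -0.00145 and the sum of the other carriers to -0.106 TPM. Quantile normalization turned Slc25a3 to -0.019, and median ratio scaling turned the correlation of Slc25a13 with Slc25a12 to -0.011 from 0.0852. Centred within genotype, 1 relation passed in place of 0, by a permutation p that may be too small. The cause was not tested.

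No pairing by mouse number was seen in the values: same-numbered libraries correlated in their deviations by -0.148 to 0.0743, and 0 of 10 correlated best with their own number. This cannot tell whether the mice were matched in the experiment. With the replicate block 0 carriers passed and no call changed. The share of Slc25a24 differs by the same 9.83 points there by construction, so that value is no check. Its adjusted p by the sign-flip test was 0.281, and the smallest possible sign-flip p is 0.0625. Depth is unknown for TPM, which limits what can be said of the carriers under 3 TPM.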

Other observations

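The share of Slc25a5 abundance that the table credits to the pseudogenes Gm5560 and Gm5529 did not overlap between genotypes. The measure was chosen after its values were seen, so it is given as a description and its p-value is left out. It was 33.7, 33.6, 31.5, 34.1 and 31.6% of the sum of the 3 genes in WT libraries 1 to 5 and 30.7, 27.8, 29.2, 29.4 and 29.7% in S452A libraries 1 to 5. The means were 32.9 ± 1.26% and 29.4 ± 1.04% (SD, n = 5). The sum itself was 537 ± 63.5 TPM in WT and 509 ± 104 in S452A. The shares of the copies of Mpc1, Slc25a37 and Slc25a40 overlapped between genotypes.

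Coding lengths of the 37 Slc25 and Ucp2 members ran from 825 to 2034 bases with a median of 951, in 2 to 18 exons. The longest were Slc25a12 (2034 bases) and Slc25a13 (2031 bases), which carry extra calcium-binding domains. Slc25a25 (1545 bases) and Slc25a24 (1428 bases), which also bind calcium, were far above the median too.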
